A study of Mus musculus with 18 samples.

Results

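The induction of germ cells from wild-type (WT) cells was followed in 6 of the 18 RNA libraries of the series, 3 of primordial germ cell-like cells after 3 days (PGCLC day 3) and 3 of the epiblast-like cells (EpiLC) from which they were made. The members were taken by their labels and not by a measured value, although earlier results of these data were known. Both groups came from mouse SGET embryonic stem cells of B6CBA/129 background, kept on gelatin in 2i/L medium. PGCLC day 3 had been cultured with LIF at 1000 U/ml, the BMP ligands BMP4 and BMP8a at 500 ng/ml each, and the growth factors SCF and EGF at 100 and 50 ng/ml and were sorted as SG+ETlow, that is for a Stella reporter and low signal of an Esg1 reporter. EpiLC had been cultured on fibronectin with 12.5 ng/ml of bFGF and 20 ng/ml of ActivinA and were not sorted. The same bFGF and ActivinA doses are listed for PGCLC day 3. Stage, medium and sorting therefore changed together and cannot be told apart. The other 12 libraries hold WT PGCLC at day 5 and the same 3 stages of Esrrb knockout (KO) lines A5, B1 and A2, all from the same SGET cells.

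In the mouse embryo a few cells of the epiblast become primordial germ cells when BMP signals reach them, and Prdm1, Prdm14 and Tfap2c are the transcription factors that carry out this change. EpiLC are a culture counterpart of the early post-implantation epiblast, in the formative state that can answer those signals. Early germ cells regain genes of naive pluripotency, such as Nanog and Klf2, and lose the de novo DNA methyltransferases, while the mesodermal program that BMP and WNT also start is held down.

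PolyA RNA was counted per gene. Totals were 4152865, 5286330 and 4393142 counts in the PGCLC day 3 libraries and 3948591, 4202233 and 3985025 in the EpiLC libraries, and ran from 3032965 to 5286330 over all 18. Levels are in CPM, a gene's counts relative to the library total, with totals scaled by TMM, and 1 count over the 3 libraries of a group corresponds to 0.0722 CPM at day 3 and 0.0855 CPM in EpiLC. A gene was called when its adjusted p was under 0.05 in edgeR's quasi-likelihood test with Benjamini-Hochberg adjustment over the 12856 genes tested. The labels do not say whether the 3 libraries of a WT group came from separate cultures, so p-values measure the spread between libraries, which may be technical. That spread was estimated over all 18 libraries, the KO lines included, whose libraries differed more among themselves than the WT ones did; the 6 WT libraries alone gave 9385 calls in place of the 7389 below.

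Much of the transcriptome differed. Of the genes tested, 7389 (57.5%) were called, 3725 (29.0%) higher at day 3 and 3664 (28.5%) lower. With a difference of at least 2-fold as well, 1814 (14.1%) were higher and 1570 (12.2%) lower. The libraries of the 2 groups did not overlap for 9896 genes (77.0%), so separation of the libraries alone is common here and is given below only as a description. The median log2 fold change over all genes tested was 0.0001, and single genes ran from -9.36 to 10.53. In libraries of bulk RNA, fewer cells of a type and less RNA per cell cannot be told apart, and this holds for each level below.

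**Figure D1:**
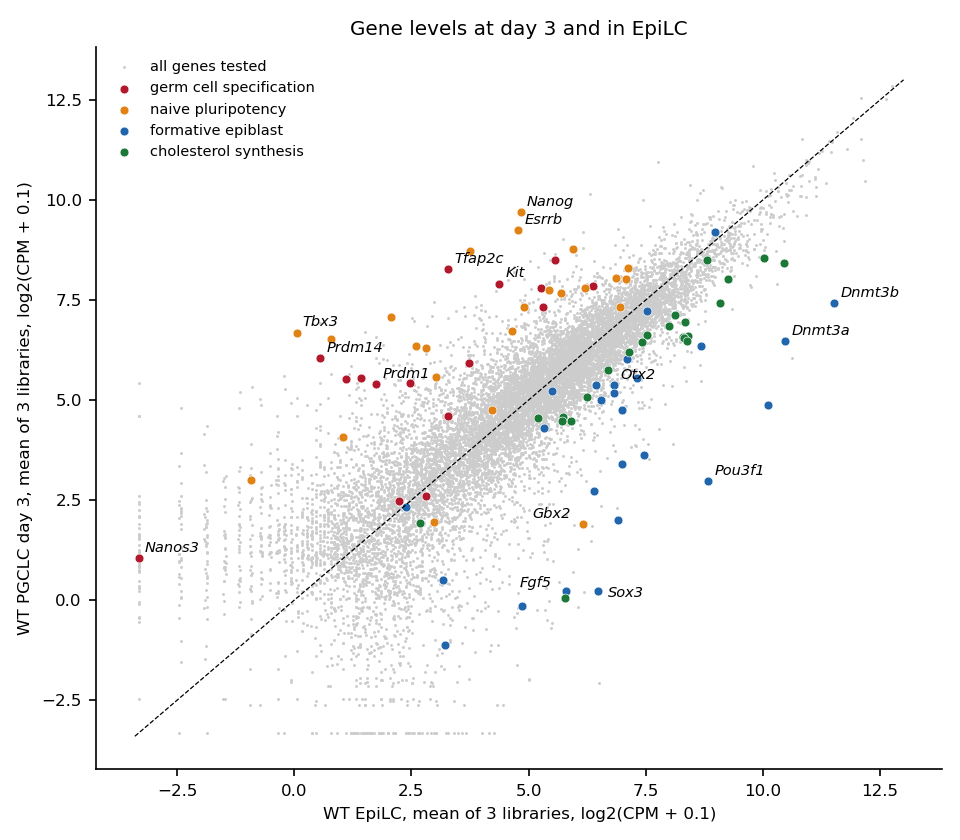
Mean level of each gene tested in WT PGCLC day 3 (vertical axis) against WT EpiLC (horizontal axis), both as log2(CPM + 0.1) over 3 libraries; the dashed line marks equal levels. Genes of the germ cell specification and naive pluripotency lists lie mostly above the line (14 of 16 and 19 of 24 were called higher), and those of the formative epiblast and cholesterol synthesis lists mostly below it (22 of 26 and 22 of 23 were called lower).

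The labels of both groups were first set against defining genes. Dppa3 (Stella), whose reporter was used in the sort, had 355, 356 and 371 CPM at day 3, against 50.6, 39.8 and 40.4 CPM in EpiLC. Dppa5a (Esg1), the gene of the reporter sorted for low signal, had 365, 351 and 347 CPM at day 3, against 90.2, 82.5 and 80.3 CPM in EpiLC. Transcripts of both reporter genes were thus more abundant in the sorted cells, and since the sort used them their levels are given with no test. The formative marker Fgf5, a growth factor of the post-implantation epiblast, had 66.1, 50.6 and 49.6 CPM in the EpiLC libraries, and Otx2, a transcription factor that restrains germ cell entry, 119, 117 and 103 CPM. The EpiLC libraries thus carried Fgf5 and Otx2. For day 3 the genes used in the sort cannot check the label, and other germ cell genes are given next.

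Germ cell specification genes rose. Of the 16 listed, all tested, 14 were called higher at day 3 and 0 lower, where 29.0% of all genes were higher. The median log2 fold change of the list was 2.96, or 2.94 with Nanos3, which is at 0 in EpiLC, set at its lower bound, against 0.0001 for all genes. Ovol2 and Cd38 were not called, with log2 fold changes of -0.22 ± 0.33 and 0.23 ± 0.42 (SE). The list, like the others here, was drawn up with earlier results of these data known.

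Prdm1 (Blimp1), a repressor of the somatic program, lies on chromosome 10 at 44437177-44528501 (GRCm38, minus strand). It had 43.5, 34.6 and 48.0 CPM at day 3, against 3.67, 3.21 and 2.87 CPM in EpiLC. The lowest day 3 library was far above the highest EpiLC library, and the log2 fold change was 3.68 ± 0.35 (SE; edgeR adjusted p = 4.5e-07). Prdm14, a repressor needed for the return of pluripotency genes in germ cells, had 67.6, 68.2 and 61.1 CPM at day 3, against 1.31, 1.24 and 1.56 CPM in EpiLC. Its log2 fold change was 5.55 ± 0.40. Tfap2c (AP2-gamma), on chromosome 2 at 172549593-172558622, had 310, 303 and 318 CPM at day 3, against 11.5, 8.40 and 8.87 CPM in EpiLC, a log2 fold change of 5.01 ± 0.44. Per kilobase of exon, Tfap2c was the most abundant of these 3 factors at day 3, at 84.3 CPM per kb, against 25.6 for Prdm14 and 7.53 for Prdm1.

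Nanos3, an RNA-binding protein that protects early germ cells, was barely reached at this depth. It had 2.66, 1.69 and 1.59 CPM at day 3 and 0 counts in all 3 EpiLC libraries, which makes it at least 7.60-fold higher when EpiLC are set at a floor of 3 counts over the group. Dnd1, another RNA-binding protein of early germ cells, was present in both states, with 24.6, 22.8 and 24.8 CPM at day 3, against 10.5, 5.68 and 12.8 CPM in EpiLC, and rose by 1.32 ± 0.34 on the log2 scale. Kit, the receptor for the SCF in the medium, had 247, 229 and 245 CPM at day 3, against 24.6, 18.04 and 19.04 CPM in EpiLC, a log2 fold change of 3.54 ± 0.35. Cbfa2t2, a scaffold partner of Prdm14, rose by 1.47 ± 0.11. The libraries of the 2 groups did not overlap for any of these genes.

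Genes of later germ cell stages did not rise together. The late germ cell list covers meiosis and the piRNA pathway, and 25 of its 27 genes were tested. Of these 5 were higher, 9 were lower and 11 were not called, with a median of -0.32. The shares higher and lower were 20.0% and 36.0%, against 29.0% and 28.5% of all genes. Dazl, an RNA-binding protein of germ cells that have reached the gonad, had 35.5, 32.0 and 31.6 CPM at day 3, against 17.8, 18.5 and 17.5 CPM in EpiLC, and rose by 0.88 ± 0.29. Mov10, an RNA helicase that acts against retrotransposons, rose by 3.44 ± 0.49, from a list in which most other called members were lower. Mael, a piRNA pathway protein, had 6.52, 8.10 and 7.27 CPM at day 3, against 50.9, 57.6 and 56.1 CPM in EpiLC. Mael fell by 2.90 on the log2 scale, Taf7l (a germ cell TFIID subunit) by 2.70, Sycp1 (a synaptonemal complex protein) by 1.74 and Tex19.1 by 1.23; the last call was lost without WT EpiLC replicate 1 or WT PGCLC day 3 replicate 2 or 3.

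**Figure D2:**
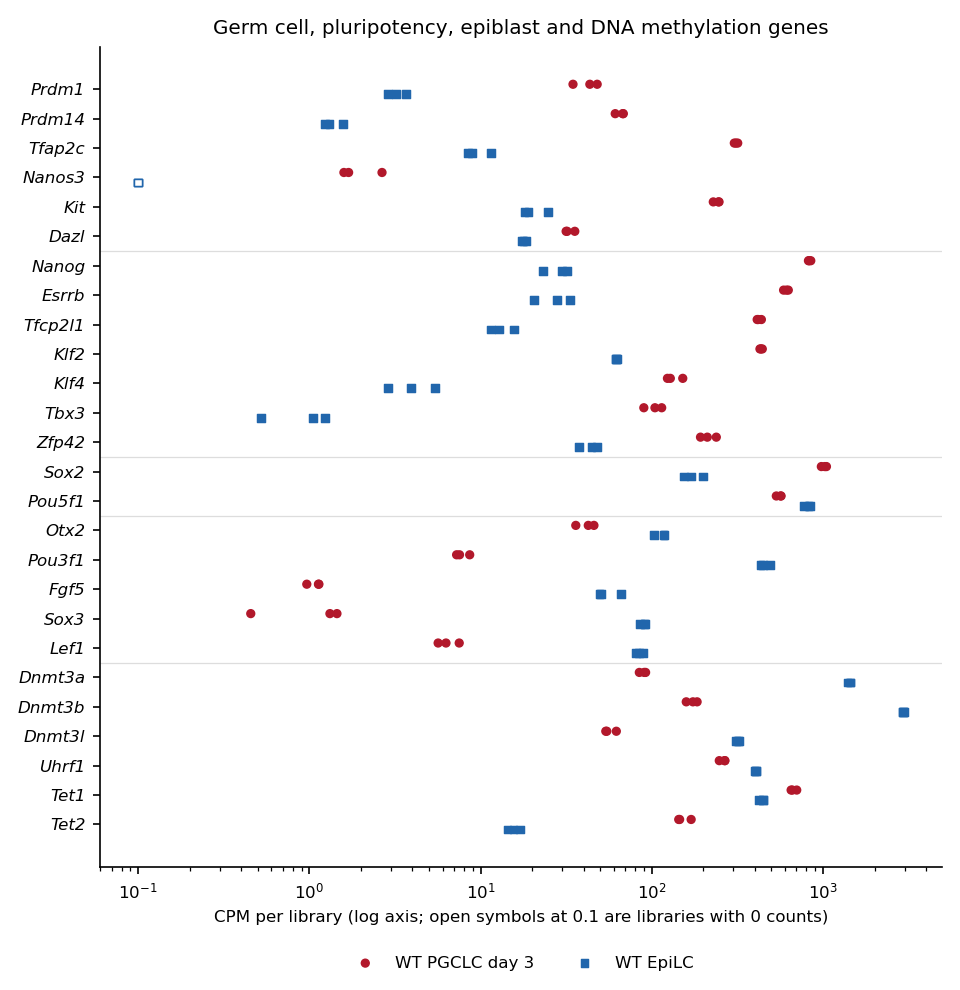
CPM of 26 named genes in each of the 3 WT PGCLC day 3 libraries (circles) and 3 WT EpiLC libraries (squares), on a log axis; open symbols mark libraries with 0 counts. The 2 groups are separate for all genes shown, with Prdm1 between 34.6 and 48.0 CPM at day 3 and between 2.87 and 3.67 CPM in EpiLC, and Dnmt3b between 159 and 184 CPM at day 3 and between 2920 and 2961 CPM in EpiLC.

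Naive pluripotency genes rose as well. Of 24 listed, all tested, 19 were higher at day 3, 1 was lower and 4 were not called, with a median log2 fold change of 2.49. Among all genes 29.0% were higher and 28.5% lower. Nanog, the homeodomain factor of naive and germ cell pluripotency, had 830, 848 and 822 CPM at day 3, against 32.0, 29.9 and 23.2 CPM in EpiLC, a log2 fold change of 4.88 ± 0.41. Esrrb, the orphan nuclear receptor that is deleted in the KO lines of this series, had 627, 588 and 612 CPM at day 3, against 33.3, 27.9 and 20.6 CPM in EpiLC, a log2 fold change of 4.48 ± 0.49. In both genes the lowest day 3 library was far above the highest EpiLC library.

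Other members of the naive circuit changed on a like scale. Tfcp2l1, a factor downstream of LIF, had 418, 413 and 436 CPM at day 3, against 15.7, 12.8 and 11.5 CPM in EpiLC, a log2 fold change of 4.98 ± 0.66. The Kruppel-like factors Klf4 and Klf2 rose by 5.03 ± 0.47 and 2.81 ± 0.24. Tbx3, a T-box factor that also answers BMP, had 114, 89.8 and 104 CPM at day 3, against 1.05, 1.24 and 0.522 CPM in EpiLC. Its log2 fold change was 6.73 ± 1.13, the highest of the list. Zfp42 (Rex1), a common reporter of the naive state, rose by 2.30 ± 0.25, and the junction protein Jam2 by 5.79 ± 0.37.

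The list had exceptions. Gbx2, a homeobox factor counted as naive, had 5.07, 2.64 and 3.18 CPM at day 3, against 76.5, 69.4 and 67.0 CPM in EpiLC, and fell by 4.30 on the log2 scale. Nr0b1 (Dax1), an orphan nuclear receptor, had 32.1, 24.9 and 23.0 CPM at day 3, against 22.5, 17.8 and 15.6 CPM in EpiLC. Its log2 fold change of 0.51 ± 0.33 was not called with all 18 libraries in the fit (edgeR adjusted p = 0.19), although the 2 groups did not overlap. Zfp57, a zinc finger protein that keeps imprints methylated, and Tcf7l2, a WNT effector, were not called either, at 0.37 ± 0.40 and -1.04 ± 0.46.

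Of 21 factors shared by both pluripotent states, 6 were higher, 9 were lower and 6 were not called, with a median of -0.25. The share higher, 28.6%, is near the 29.0% of all genes, and the share lower was 42.9%, against 28.5%. Sox2 had 1047, 978 and 1024 CPM at day 3, against 199, 170 and 155 CPM in EpiLC, and rose by 2.54 ± 0.17. Its usual partner Pou5f1 (Oct4) had 565, 569 and 534 CPM at day 3, against 836, 823 and 777 CPM in EpiLC, and fell by 0.55 on the log2 scale. Per kilobase of exon, the levels of Sox2 and Pou5f1 were 494 and 247 CPM per kb at day 3, and 84.9 and 361 CPM per kb in EpiLC, so the order of the 2 genes was opposite in the 2 states. The paired let-7 blockers Lin28a and Lin28b fell by 1.85 and 2.48 on the log2 scale, and Foxd3, a forkhead factor of the epiblast, by 2.33. Tdgf1 (Cripto), a Nodal co-receptor, rose by 2.07 ± 0.39, the cell cycle factor Mybl2 by 1.47 ± 0.19 and Sall4 by 1.03 ± 0.15.

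Formative epiblast genes fell. Of 26 listed, all tested, 22 were lower at day 3 and 0 were higher, where 28.5% of all genes were lower, and the median log2 fold change was -2.54. Pou3f1 (Oct6), a POU factor of the post-implantation epiblast on chromosome 4, had 7.24, 7.53 and 8.64 CPM at day 3, against 488, 446 and 431 CPM in EpiLC. It fell by 5.86 on the log2 scale (SE 0.37; edgeR adjusted p = 1.5e-08). Fgf5 had 0.966, 1.13 and 1.14 CPM at day 3 and fell by 5.64, and Sox3 had 1.45, 1.32 and 0.455 CPM at day 3, against 90.7, 91.2 and 85.3 CPM in EpiLC, and fell by 6.33. Otx2 kept more of its transcript, with 36.0, 42.6 and 45.9 CPM at day 3, and fell by 1.44 ± 0.38. Lef1, a WNT effector also on this list, fell by 3.71 and Wnt8a, an epiblast WNT ligand, by 5.13. Dnmt3a and Dnmt3b, described below, are on this list too. Igfbp2, Fgf15, Krt18 and Tead2 were the 4 members not called, with log2 fold changes between -0.31 and 0.22.

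The largest single differences were taken by rule, as the 12 genes at each end by log2 fold change, out of called genes that reached 20 CPM in either group and whose libraries did not overlap. At the top, Ly6g6e, a membrane-anchored Ly6 protein, had 41.3, 43.9 and 43.6 CPM at day 3 and 0 counts in EpiLC, and was at least 168-fold higher. Msx2, a homeobox target of BMP, had 22.7, 24.5 and 25.7 CPM at day 3 and 0 counts in EpiLC, and was at least 94.9-fold higher. Gata2, a zinc finger factor of blood and trophoblast, had 24.6, 27.9 and 30.5 CPM at day 3 and a single count in EpiLC, a ratio of 324 with an exact 95% counting interval of 57.9 to 12840. Aqp3, a water and glycerol channel, had 123, 123 and 118 CPM at day 3, against 1.31, 0.988 and 1.83 CPM in EpiLC. The others were Tbx3, Aldh3b2, Wnt7b, Capn6, Pdlim4, Mep1b, Jam2 and Dner. The rule picks large ratios and asks for 20 CPM in only 1 group. Low EpiLC levels of these genes are thus partly built in, and nothing is read from them.

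At the bottom, Btbd17 had 0, 0.188 and 0.227 CPM at day 3, against 88.3, 86.2 and 96.0 CPM in EpiLC, a ratio of 624 (exact 95% counting interval 172 to 5160) in favour of EpiLC. Slc7a11, the cystine importer of the glutathione pathway, had 0, 0 and 0.455 CPM at day 3, against 29.6, 31.6 and 34.9 CPM in EpiLC. Its ratio in favour of EpiLC was 222 (61.0 to 1840). Gfra1, a GDNF co-receptor, Neurod1 and Insm1, neuroendocrine transcription factors, Bcl11a, a zinc finger repressor, and Fst (follistatin), a secreted binder of activin, were also among the 12 lowest, with Spon1, Vrtn, Sox3, Jph4 and Pou3f1. Counting intervals and floors cover counting error only.

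Among genes that reached 200 CPM in either group, the 10 highest log2 fold changes belonged to Tfap2c, Tfcp2l1, Nanog, Esrrb, H19, H2afy, Kit, Ckb, Mreg and Mov10. H2afy, which encodes the histone variant macroH2A1, had 303, 328 and 333 CPM at day 3, against 31.7, 25.0 and 20.6 CPM in EpiLC, and rose by 3.64 ± 0.28. Ckb, the brain creatine kinase, rose by 3.51 ± 0.30. The 10 lowest were Pou3f1, Pim2, Meg3, Grb10, Dnmt3b, Dnmt3a, Cbr3, Mest, Trio and Pmaip1. Pim2, a serine/threonine kinase, had 33.6, 27.5 and 27.05 CPM at day 3, against 1097, 1105 and 1130 CPM in EpiLC, and fell by 5.24. The 10 that rose include Tfap2c, Nanog and Esrrb, and the imprinted genes among the 20 went both ways, with H19 higher and Meg3, Grb10 and Mest lower.

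Promoter letters were read for a few of these genes. POU factors such as Pou5f1 and Pou3f1 bind the octamer ATGCAAAT, and the windows below are those of 3 named genes that hold it, 1 that rose and 2 that fell; they were chosen after their values were seen. Each is 200 bases from RefSeq's promoter window (GRCm38.p6), 5′ to 3′ on the gene's own strand, in lower case with the octamer, on either strand, in capitals. Zfp42 rose; its stretch, chr8:43307010-43307209 (minus strand), ends at RefSeq's start of the gene. Pim2 fell; its stretch, chrX:7878056-7878255 (plus strand), begins 250 bases before the start. Slc7a11 fell; its stretch, chr3:50443614-50443813 (minus strand), ends at the start.
Zfp42: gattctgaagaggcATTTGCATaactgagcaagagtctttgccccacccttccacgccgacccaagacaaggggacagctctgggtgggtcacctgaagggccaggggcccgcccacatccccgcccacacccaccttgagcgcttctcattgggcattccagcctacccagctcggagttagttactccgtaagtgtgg
Pim2: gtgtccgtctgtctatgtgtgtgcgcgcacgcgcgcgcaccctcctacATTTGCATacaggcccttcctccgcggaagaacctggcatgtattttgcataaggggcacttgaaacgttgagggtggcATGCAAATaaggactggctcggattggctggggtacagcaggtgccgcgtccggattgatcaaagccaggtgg
Slc7a11: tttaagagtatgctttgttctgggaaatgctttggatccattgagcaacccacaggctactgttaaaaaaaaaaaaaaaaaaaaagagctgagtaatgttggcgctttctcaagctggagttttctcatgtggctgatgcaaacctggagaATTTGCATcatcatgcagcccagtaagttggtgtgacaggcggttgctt
The octamer was present once in the Zfp42 and Slc7a11 windows and at 2 places in the Pim2 window. Over whole 300-base windows it was found in 21 of 1756 windows (1.20%) of genes at least 2-fold higher at day 3, 29 of 1350 (2.15%) of genes at least 2-fold lower and 157 of 11795 (1.33%) of all genes tested that had a window (9173 genes). AAGGTCA, the extended binding site of orphan nuclear receptors such as Esrrb, was in 4.10%, 2.81% and 3.21% of the same windows. TTCCNGGAA, a STAT site, was in 1.42%, 1.56% and 1.17%, and the E box CACGTG in 9.62%, 9.26% and 10.1%. Both strands were searched, none of the 4 motifs contains another, and a match is a description of the letters, not a binding site.

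Of 14 DNA methylation genes tested of 15 listed, 5 were higher at day 3, 8 were lower and 1 was not called. That is 35.7% higher and 57.1% lower, against 29.0% and 28.5% of all genes. Writers and cofactors were 2 higher and 5 lower of 8, and erasers and repair genes 3 higher and 3 lower of 6. The de novo methyltransferase Dnmt3b, on chromosome 2 at 153649450-153687730, had 174, 159 and 184 CPM at day 3, against 2920, 2930 and 2961 CPM in EpiLC, and fell by 4.09 on the log2 scale. Dnmt3a, on chromosome 12 at 3806007-3914443, had 92.0, 90.2 and 84.6 CPM at day 3, against 1447, 1440 and 1391 CPM in EpiLC, and fell by 4.003. Their cofactor Dnmt3l had 54.6, 53.9 and 62.0 CPM at day 3, against 318, 324 and 309 CPM in EpiLC, and fell by 2.48. All 3 were thus lower together, with no overlap between the groups.

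Maintenance genes and TET dioxygenases went both ways. Dnmt1, the maintenance methyltransferase, had 568, 564 and 565 CPM at day 3, against 400, 403 and 336 CPM in EpiLC, and rose by 0.58 ± 0.10. Uhrf1, which brings Dnmt1 to replicated DNA, had 266, 248 and 267 CPM at day 3, against 406, 406 and 397 CPM in EpiLC, and fell by 0.63. Among the TET dioxygenases, Tet2 had 170, 145 and 144 CPM at day 3, against 17.04, 15.6 and 14.3 CPM in EpiLC, and rose by 3.29 ± 0.50. Tet1 rose by 0.62 ± 0.20 and Tet3 fell by 1.88. Per kilobase of exon the most abundant methyltransferase was Dnmt1 at day 3, at 76.7 CPM per kb beside 33.7 for Dnmt3b and 5.34 for Dnmt3a, and Dnmt3b in EpiLC, at 575 CPM per kb beside 85.7 for Dnmt3a and 51.5 for Dnmt1.

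Of 22 histone methylation genes tested, 11 were higher, 5 were lower and 6 were not called. These are 50.0% and 22.7%, against 29.0% and 28.5% of all genes. Most differences were small, with 5 genes at least 2-fold higher and a median of 0.30. Ezh2, the H3K27 methyltransferase of Polycomb, had 382, 359 and 362 CPM at day 3, against 225, 221 and 218 CPM in EpiLC, and rose by 0.73 ± 0.08. Its partner Suz12 had 1212, 1179 and 1235 CPM at day 3, against 427, 404 and 435 CPM in EpiLC, and rose by 1.52 ± 0.25, the highest of the list. Ehmt1 (GLP), an H3K9 dimethyltransferase, was not called, at -0.17 ± 0.11. Prmt5, an arginine methyltransferase of germ cells, and its partner Wdr77 fell by 0.50 and 0.70.

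Genes of the pathways that the added cytokines act on were listed by pathway. LIF acts through STAT3, and 15 of 16 genes tested of this pathway were higher at day 3, 0 were lower and Lif itself was not called (-0.11 ± 0.47). Among all genes 29.0% were higher. All 10 listed STAT3 targets were higher, with a median of 3.82. Socs3, the feedback inhibitor, had 140, 124 and 135 CPM at day 3, against 4.98, 5.44 and 6.52 CPM in EpiLC, and rose by 4.55 ± 0.32. Bcl3, an IkB-family cofactor, and Junb, an AP-1 factor, rose by 4.91 ± 0.63 and 4.14 ± 0.69. Klf4 and Tfcp2l1, counted above as naive genes, are on this list too, so the 2 lists are not independent. Of the kinases, Jak1 rose by 0.84 ± 0.19, and Jak2 by 1.01 ± 0.41 with a call that 9 of 15 other fits did not keep.

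BMP signalling genes were more often higher than lower. Of 27 tested of 33 listed, 16 were higher, 2 were lower and 9 were not called. The count higher was 12 to 19 over the other fits. Shares higher and lower were 59.3% and 7.41%, against 29.0% and 28.5% of all genes. Of the 9 targets 7 were higher and 0 lower, with a median of 2.94, and the other 9 that rose were 2 ligands, 3 receptors, 1 SMAD and 3 inhibitors. Id1, an inhibitor of bHLH factors and a direct BMP target, had 40.8, 40.7 and 38.2 CPM at day 3, against 1.84, 2.96 and 2.61 CPM in EpiLC, and rose by 3.99 ± 0.44. Its relatives Id2, Id3 and Id4 rose by 1.89 ± 0.31, 2.13 ± 0.39 and 4.58 ± 0.40. The feedback inhibitor Smad7 rose by 4.44 ± 0.89 and the ligand Bmp4 by 4.41 ± 0.92. Chrd (chordin), an extracellular BMP antagonist, had 1.21, 1.13 and 0.455 CPM at day 3, against 6.55, 6.67 and 8.87 CPM in EpiLC, and fell by 2.94. The receptor Bmpr1b fell by 2.59, at under 3 CPM in every library.

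Activin, listed for both groups, acts through the receptors of Nodal. Among 16 Nodal genes tested, 8 were higher at day 3, 3 were lower and 5 were not called. The shares were 50.0% higher and 18.8% lower, against 29.0% and 28.5% of all genes. Without WT EpiLC replicate 3 the count higher was 5 of 17. Fst, a target and binder of activin, had 0.724, 0.377 and 0.455 CPM at day 3, against 44.8, 45.7 and 42.0 CPM in EpiLC, and fell by 6.37, while Lefty2, a Nodal inhibitor, had 33.8, 25.8 and 27.7 CPM at day 3, against 3.67, 5.19 and 3.65 CPM in EpiLC, and rose by 2.79 ± 0.52. Nodal itself had 15.5, 16.4 and 15.7 CPM at day 3, against 32.2, 27.2 and 35.5 CPM in EpiLC, a log2 fold change of -0.99 ± 0.42 that was not called (edgeR adjusted p = 0.056). The ligand Inhbb rose, with 109 counts at day 3 and 3 in EpiLC, a ratio of 30.7 (exact 95% counting interval 10.2 to 151), and the mediator Foxh1 fell by 1.46.

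Of 32 WNT genes tested, 6 were higher, 10 were lower and 16 were not called, with a median of 0.07; 18.8% higher and 31.2% lower stand beside 29.0% and 28.5% of all genes. The ligands Wnt8a and Wnt7b went opposite ways: Wnt7b had 46.4, 34.1 and 39.1 CPM at day 3, against 1.05, 0 and 0.261 CPM in EpiLC, and rose by 6.44 ± 1.36. Lef1 had 6.28, 5.65 and 7.50 CPM at day 3, against 84.1, 88.4 and 81.1 CPM in EpiLC. Rnf43, a feedback inhibitor of WNT receptors, rose by 2.98 ± 0.39, and the receptor Fzd2 fell by 3.12.

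Of 27 FGF, EGF and KIT genes tested, 8 were higher, 9 were lower and 10 were not called, 29.6% and 33.3%, which is near the 29.0% and 28.5% of all genes. Without WT EpiLC replicate 3 the count higher was 5. Among 8 receptors 6 were higher and 0 lower, while among 7 targets 4 were lower and 0 higher, and among 7 feedback inhibitors 3 were lower and 0 higher. Erbb3, an EGF-family receptor, rose by 2.68 ± 0.31 and Fgfr3 by 2.69 ± 0.39. Dusp6, an ERK phosphatase induced by ERK, had 53.8, 51.8 and 65.7 CPM at day 3, against 134, 149 and 137 CPM in EpiLC, and fell by 1.30; Spry4 fell by 1.16, Dusp4 by 2.39, Spred1 by 2.48 and Myc by 2.03.

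**Figure D3:**
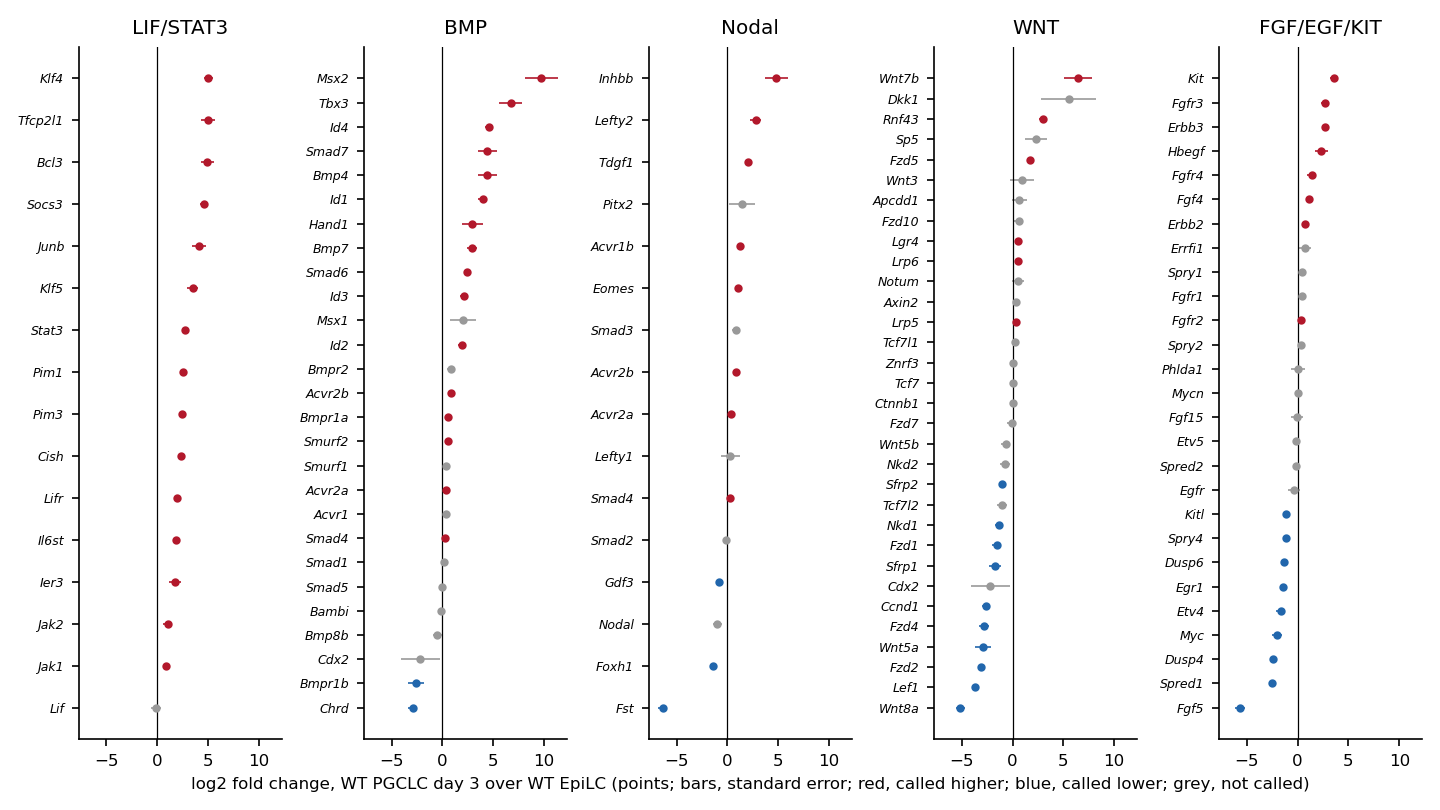
Log2 fold change of WT PGCLC day 3 over WT EpiLC for every gene tested of 5 signalling lists (points, with standard error bars; red called higher, blue called lower, grey not called). The LIF/STAT3 panel holds 15 red points of 16 and the BMP panel 16 of 27, while the WNT panel holds 10 blue points of 32; the points of Msx2 and Dkk1, which are at 0 counts in EpiLC, depend on the prior count of the fit.

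Mesoderm is a program that BMP and WNT also start in the embryo. T (Brachyury) had 0.483, 0 and 0.227 CPM at day 3, against 0.524, 0 and 0 CPM in EpiLC, and was too low to be tested, and Mesp1 had 0 counts in all 6 libraries. The 17 gastrulation mesoderm genes together had sums of 53.1 to 56.3 CPM at day 3, against 15.4 to 17.3 CPM in EpiLC. Of these genes 6 were tested, and 3 were higher (Bmp4, Hand1 and Eomes) and 1 lower (Snai1). Those shares were 50.0% and 16.7%, against 29.0% and 28.5% of all genes. Bmp4 and Hand1 are also on the BMP list and Eomes on the Nodal list, so these lists are not independent. Eomes lost its call without WT EpiLC replicate 3, Hand1 without any 1 EpiLC library or WT PGCLC day 3 replicate 3, and Snai1 without WT PGCLC day 3 replicate 3. Hoxb1, a homeobox gene, had 0 counts at day 3 and 0, 0.247 and 0.522 CPM in EpiLC. T, Mesp1 and Hoxb1 were thus not detected above a few counts at this depth, which does not show that they were absent.

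Genes of other cell types were likewise summed. Trophoblast-linked genes summed to between 123 and 149 CPM at day 3, against 32.1 to 38.3 CPM in EpiLC, and 6 of 12 tested were higher and 0 lower (3 to 9 higher over the other fits, with 3 of 13 without WT EpiLC replicate 3). That share higher was 50.0%, against 29.0% of all genes. Those called were Gata2, Tead4, Hand1, Esx1, Eomes and Krt19, the last lost in 6 other fits. The genes set as defining markers of trophoblast were not called or were too low to be tested. Cdx2, another member of the list, had 1 count over the day 3 libraries and 5 over EpiLC. Endoderm genes summed to 276 to 295 CPM at day 3 and 270 to 280 CPM in EpiLC, mostly Sparc, with Foxa2 and Ttr at 0. Blood and endothelium genes summed to 223 to 251 CPM at day 3, against 84.8 to 93.1 CPM in EpiLC, with 2 of 3 tested higher and 2 of the 10 genes at 0 in all 6 libraries. The other members were too low to be tested, and the share higher was 66.7%, against 29.0% of all genes. Among the 2 higher genes, 1 is also on the naive pluripotency list, so the 2 lists are not independent. Genes of the 2-cell-like state summed to 1.82 to 3.39 CPM at day 3, against 4.17 to 7.86 CPM in EpiLC. Neural ectoderm genes summed to 44.5 to 46.7 CPM at day 3, against 101 to 103 CPM in EpiLC, with Sox1 and Pax6 under 5 CPM in every library. Among 5 neural genes tested, 1 was higher and 3 were lower, 20.0% and 60.0%, against 29.0% and 28.5% of all genes.

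Mesenchyme genes summed to 52.7 to 54.6 CPM at day 3, against 248 to 264 CPM in EpiLC, mostly Vim, an intermediate filament gene. Among 8 tested, 1 was higher and 5 were lower, 12.5% and 62.5%, against 29.0% and 28.5% of all genes. Col1a2 and Dcn, genes of fibroblast matrix, had 0 counts at day 3, against 9.17, 11.9 and 10.7 CPM and 5.77, 9.14 and 8.35 CPM in EpiLC, at least 49.0-fold and 35.9-fold lower at day 3, while Postn, Lum and Prrx1 were at 0 in all 6 libraries. Dissociation stress genes, which move when cells are detached and sorted, had 8 of 19 tested higher and 3 lower (6 to 13 higher over the other fits). Those shares were 42.1% and 15.8%, against 29.0% and 28.5% of all genes. Fos, Junb, Nr4a1 and Zfp36 rose by 2.17 ± 0.43, 4.14 ± 0.69, 2.19 ± 0.31 and 1.98 ± 0.41, while Atf3 and Egr1 fell by 5.55 and 1.47. The sum of that list was 2639 to 2647 CPM at day 3 and 2473 to 2557 CPM in EpiLC. Junb and Ier3 are also on the STAT3 list. The part of these cell types and of handling in the differences above was not tested.

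Metabolic genes separated by pathway. Cholesterol synthesis genes fell: of 23 listed, all tested, 22 were lower at day 3 and 0 higher, with a median of -1.23. Among all genes 28.5% were lower. Scd2, a fatty acid desaturase, had 346, 322 and 355 CPM at day 3, against 1403, 1388 and 1400 CPM in EpiLC, and fell by 2.03. The enzymes Sc4mol and Fdps fell by 1.92 and 1.81, and Srebf2, the transcription factor of the pathway, by 0.30. Idi1, at under 7 CPM in every library, was the member not called.

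Of 24 glycolysis genes 12 were higher, 2 were lower and 10 were not called. These are 50.0% and 8.33%, against 29.0% and 28.5% of all genes. Slc2a3 (GLUT3), a glucose importer, had 1916, 1951 and 2004 CPM at day 3, against 228, 203 and 222 CPM in EpiLC, and rose by 3.17 ± 0.39. The other glucose importer, Slc2a1 (GLUT1), had 800, 774 and 793 CPM at day 3, against 1214, 1142 and 1191 CPM in EpiLC, and fell by 0.58, a call lost without WT PGCLC day 3 replicate 2. Hexokinase Hk1 rose by 3.12 ± 0.28, the phosphofructokinase Pfkp by 3.04 ± 0.24 and the enolase Eno2 by 3.63 ± 0.31. Gapdh is counted at under 32 CPM in every library; it has many near-identical processed copies, and its count is uncertain.

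Respiratory chain genes were more often lower than higher, by small amounts: of 38 tested, 3 were higher, 22 were lower and 13 were not called, with a median of -0.36. Shares higher and lower were 7.89% and 57.9%, against 29.0% and 28.5% of all genes. The count lower was 14 without WT EpiLC replicate 3, or without WT PGCLC day 3 replicate 1 or 3. Of 9 listed genes of the mitochondrial genome 6 were tested and 5 of them were lower, while the others were too low to be tested. mt-Cytb, a complex III subunit, had 1494, 1400 and 1399 CPM at day 3, against 4427, 4606 and 4834 CPM in EpiLC, and fell by 1.69. Cox7a1, a subunit of complex IV known from muscle, stood apart with 27.04, 25.6 and 22.0 CPM at day 3, against 4.46, 2.96 and 1.56 CPM in EpiLC, and rose by 3.04 ± 0.29.

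**Figure D4:**
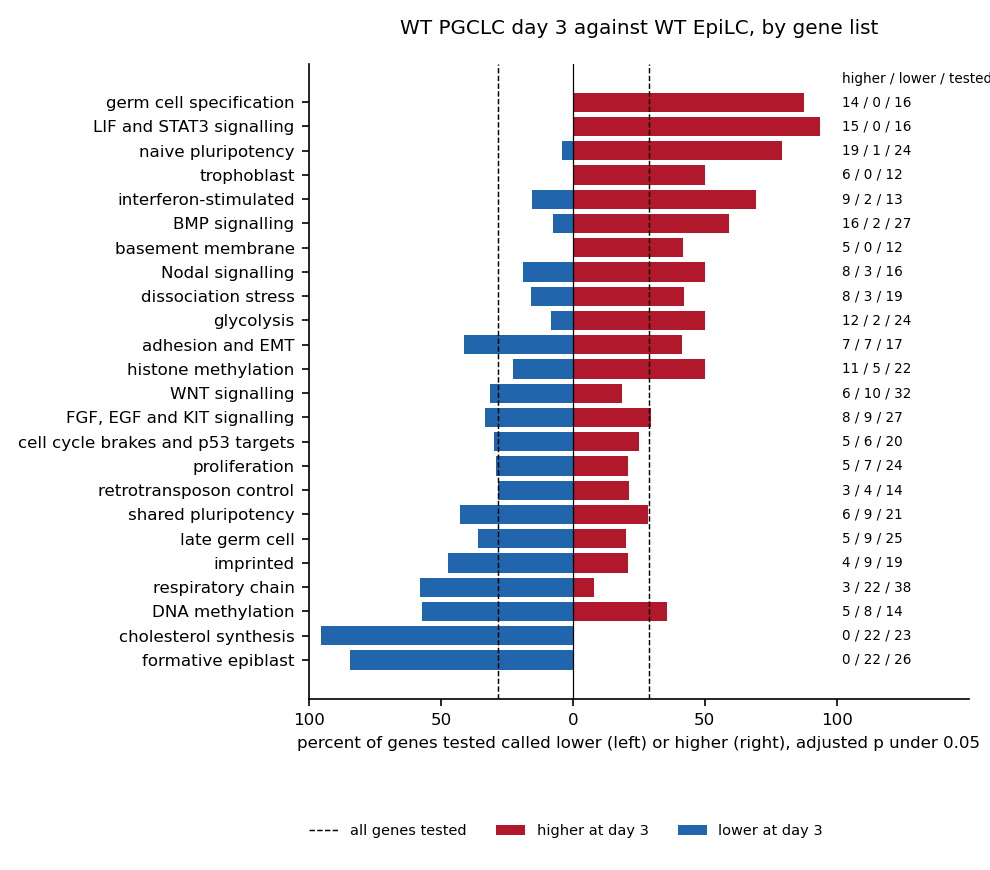
Percent of the genes tested of each list called higher (right, red) or lower (left, blue) in WT PGCLC day 3 against WT EpiLC, for lists with at least 12 genes tested, ordered by median log2 fold change; dashed lines mark the 29.0% and 28.5% of all genes tested. LIF and STAT3 signalling (15 of 16 higher) and germ cell specification (14 of 16) lie far to the right, and cholesterol synthesis (22 of 23 lower) and formative epiblast (22 of 26) far to the left.

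Imprinted genes were lower more often than higher, 9 against 4 of 19 tested. Those shares were 47.4% lower and 21.1% higher, against 28.5% and 29.0% of all genes. Meg3, the maternal noncoding RNA of the Dlk1 domain on chromosome 12, had 60.1, 65.7 and 72.7 CPM at day 3, against 1622, 1691 and 1384 CPM in EpiLC, and fell by 4.56, and Dlk1, the paternally expressed gene of the same domain, fell by 4.99. Grb10, a growth factor receptor adaptor, had 14.004, 15.4 and 14.8 CPM at day 3, against 263, 265 and 285 CPM in EpiLC, and fell by 4.20, and Mest by 3.22. H19 went the other way, with 1022, 1225 and 1168 CPM at day 3, against 87.6, 82.3 and 69.1 CPM in EpiLC, a log2 fold change of 3.84 ± 0.79, and its neighbour Igf2 was not called (1.35 ± 0.60). Igf2r rose by 1.55 ± 0.12 and Plagl1 by 2.13 ± 0.66. The counts do not tell the parental alleles apart.

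Interferon-stimulated genes were mostly higher, at low levels: of 13 tested, 9 were higher and 2 lower, with a median of 1.45. Shares higher and lower were 69.2% and 15.4%, against 29.0% and 28.5% of all genes. Usp18, Ifih1 and Isg15 had 0 counts in EpiLC and 3.62, 2.45 and 4.09 CPM, 1.45, 1.13 and 2.50 CPM, and 0.966, 1.32 and 1.14 CPM at day 3, at least 12.95-fold, 6.47-fold and 4.50-fold higher. Ifi27l1 had 12.3, 9.79 and 8.18 CPM at day 3 and a single count in EpiLC, a ratio of 117 (exact 95% counting interval 20.7 to 4669). Of 24 proliferation genes 5 were higher, 7 were lower and 12 were not called, 20.8% and 29.2%, at or below the 29.0% and near the 28.5% of all genes; Mki67 rose by 0.69 ± 0.11 and E2f1 by 1.24 ± 0.11, and Pcna and Tyms fell by 0.75 and 1.11. Of the p53 targets and cell cycle brakes 5 of 20 were higher and 6 lower, shares also near those of all genes; Pmaip1 (Noxa), a death effector, had 41.5, 43.3 and 47.7 CPM at day 3, against 322, 321 and 341 CPM in EpiLC, and fell by 2.89.

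Of 17 adhesion and EMT genes 7 were higher and 7 lower, 41.2% each, against 29.0% and 28.5% of all genes; without WT PGCLC day 3 replicate 3 the count lower was 4. The claudins Cldn3 and Cldn4 rose by 2.39 ± 0.49 and 2.17 ± 0.51 and P-cadherin (Cdh3) by 1.65 ± 0.14. N-cadherin (Cdh2), Vim and Twist1, genes of mesenchymal change, fell by 2.74, 2.58 and 2.21. Zeb2, of the same kind, had 2 counts at day 3 and 60 in EpiLC, a ratio of 35.5 in favour of EpiLC (exact 95% counting interval 9.42 to 300.1). Of 12 basement membrane genes 5 (41.7%) were higher and 0 lower, where 29.0% and 28.5% of all genes were. The fit of the 6 WT libraries alone gave 7 higher and 3 lower, and that without KO line A2 gave 7 and 1. Among the 5 higher were Nid1, which rose by 2.91 ± 0.82, and Hspg2 (perlecan), by 2.04 ± 0.48. Fn1 (fibronectin), the coating under the EpiLC, had 1129, 1124 and 1214 CPM at day 3, against 421, 419 and 363 CPM in EpiLC. Its log2 fold change of 1.53 ± 0.72 was not called over all 18 libraries (edgeR adjusted p = 0.081), while it was called in the fit of the 6 WT libraries alone.

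WT PGCLC at day 5 show where day 3 stands, as a description with no test; their titles and time labels give 5 days, and their descriptions day 6. Dazl averaged 90.8 ± 12.6 CPM at day 5 and 33.0 ± 2.14 at day 3, and Dnmt3l 119 ± 4.81 at day 5 and 56.8 ± 4.54 at day 3 (SD, n = 3 each). Prdm1 averaged 27.8 ± 2.11 CPM at day 5 and 42.0 ± 6.77 at day 3, and Tfap2c 194 ± 1.15 at day 5 and 310 ± 7.08 at day 3. Prdm14 (64.3 ± 1.41 at day 5 and 65.6 ± 3.90 at day 3), Dnmt3b (166 ± 12.98 and 172 ± 12.6) and Esrrb (583 ± 18.4 and 609 ± 19.3) had like averages at both times. Meg3 averaged 22.5 ± 0.981 CPM at day 5 and 66.2 ± 6.32 at day 3.

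The same step was compared in Esrrb KO cells through the interaction, the KO step minus the WT step. The KO libraries keep Esrrb reads, and which part of the gene is deleted is not given in the sources used here. Esrrb had 162, 165 and 91.5 CPM in KO day 3 (lines A5, B1 and A2) and 6.71, 4.54 and 39.8 CPM in KO EpiLC of the same lines. The library labelled KO EpiLC A2 thus lay above all 3 WT EpiLC libraries, unlike those of A5 and B1. Since the deleted part is not given, Esrrb reads cannot tell whether that label is right. The count of genes and the differences that line A2 moves are therefore given without this line as well. The interaction was called for 847 genes (6.59%), 380 with a higher and 467 with a lower step in KO. Without line A2 the count was 1912. KO libraries of 1 line at the 2 stages deviate together, and with the replicate as a block it was 1457. With any 1 of the 6 WT libraries left out it was between 361 and 442.

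Of the 847 genes, 737 were also called in the WT step. Where WT cells rose (414 genes) the KO step was less in 399 and more in 15, and where WT cells fell (323) the KO fall was less in 314 and more in 9. Because the interaction holds the WT step with its sign turned, such an imbalance is partly built in, and nothing is read from it. Prdm1, Prdm14, Tfap2c, Kit, Nanog and Dnmt3b were not among the genes whose step was called different, which does not show that their steps were the same.

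Among the panel genes 6 had a different step. Lef1 had 29.1, 46.0 and 36.4 CPM in KO day 3 and 73.4, 85.7 and 47.9 CPM in KO EpiLC, so its fall was 0.90 ± 0.25 in KO cells, against 3.71 ± 0.29 in WT cells (interaction 2.81 ± 0.38, edgeR adjusted p = 0.00078, and 2.59 without line A2). Dnmt3a had 138, 120 and 198 CPM in KO day 3 and 900, 972 and 780 CPM in KO EpiLC, an interaction of 1.47 ± 0.22 (edgeR adjusted p = 0.0014) and of 1.15 without line A2. Pou5f1 rose in KO cells by 0.43 ± 0.15 and fell in WT cells, an interaction of 0.97 ± 0.21, and of 0.87 without line A2. Klf4 and Socs3 rose less in KO cells, with interactions of -2.74 ± 0.66 and -1.72 ± 0.42; without line A2 they were -1.99 (edgeR adjusted p = 0.19, call lost) and -0.97 (call kept). Uhrf1 had an interaction of 0.50 ± 0.13, and of 0.35 without line A2.

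Over all genes, the 6 highest and 6 lowest interactions among genes called in both comparisons were taken by rule. Enpp2 (autotaxin), a secreted lysophospholipase, had 56.5, 62.5 and 44.1 CPM in KO day 3 and 26.4, 26.97 and 22.4 CPM in KO EpiLC, where WT cells had 3.14, 3.58 and 4.09 CPM at day 3 and 59.5, 62.3 and 66.2 CPM in EpiLC. It rose in KO cells by 1.10 ± 0.18 and fell in WT cells, an interaction of 5.21 ± 0.29 (edgeR adjusted p = 3.5e-08), and of 5.25 without line A2. Slc35d3, Calca, Pde2a, Xist and Vrtn were the other 5 highest; reads of Xist and its antisense partner Tsix cannot be told apart without the strand setting. Wnt7b, Rin3, Ly6a, Tinagl1, Ism2 and Tgm2 were the 6 lowest. Wnt7b had 3.94 and 3.28 CPM in KO EpiLC of lines A5 and B1 and 92.9 CPM in line A2, and its interaction was -5.55 without that line, against -8.42 with it. Tinagl1 and Tgm2 likewise had 105 and 97.9 CPM in that library, and interactions of -3.05 and -2.90 without line A2, against -6.72 and -5.31 with it; Ly6a lost its call.

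**Figure D5:**
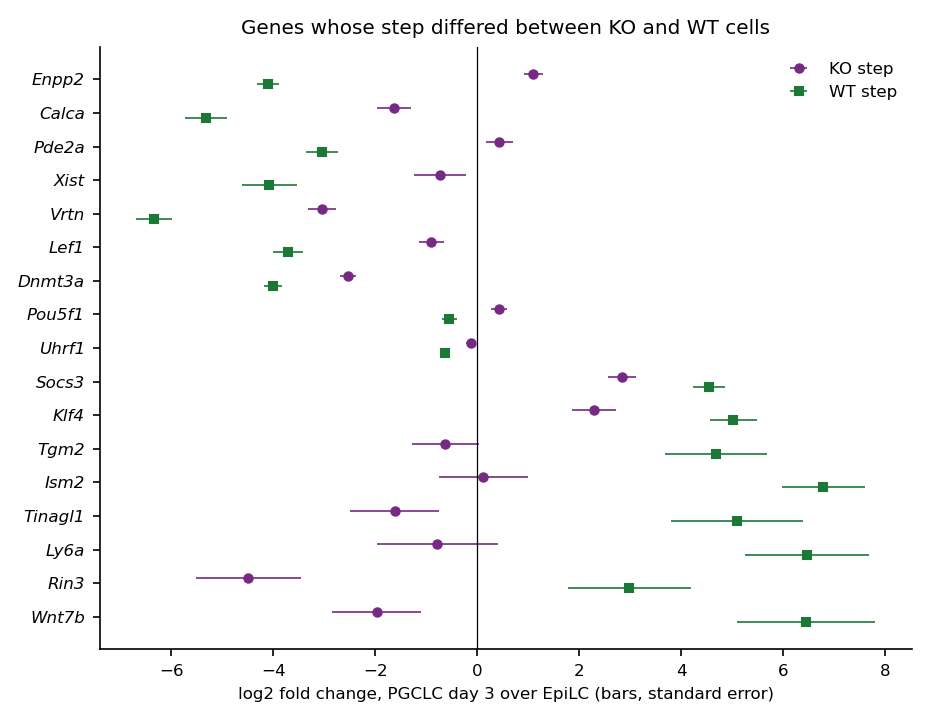
Log2 fold change of PGCLC day 3 over EpiLC in KO cells (circles) and in WT cells (squares), with standard error bars, for 6 panel genes and 11 of the 12 genes taken by rule whose step was called different. Enpp2 lies at 1.10 in KO and -4.11 in WT cells, and Wnt7b, which rests in part on KO line A2, at -1.97 in KO and 6.44 in WT cells.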

How the data were processed

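PolyA RNA of sorted or whole cells was purified (PicoPure) and made into libraries with a directional kit (NEBNext Ultra II), per the labels' protocols. The deposited files give 1 whole-number count of uniquely assigned reads per gene and library, with the authors' CPM beside it; Trim Galore 0.4.3.1 trimmed the reads and the builds named are mm10 and GRCm38.p4, per the submitters' processing notes. Which aligner, counter, annotation and strand option were used is not given in the sources used here. Of 25965 rows, 56 lack a gene ID and stayed outside totals and tests (0.0559% to 0.0828% of counts).

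From the counts, the 6 groups of all 18 libraries were fitted with edgeR 4.0.16 (R 4.3.3; TMM, filterByExpr, robust quasi-likelihood fit, 12 residual degrees of freedom), which left 12856 genes, and p-values were Benjamini-Hochberg adjusted over them. SE is the log2 fold change divided by the square root of F. CPM in the text are counts over TMM-scaled totals. The test was tried on simulated data, and the outcome is not reported here. Gene positions and exon lengths are those of GENCODE M21 (GRCm38), matched for 24990 of 25909 genes. Of 633 list entries, 5 had no match.

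The samples, gene lists and named genes were chosen with earlier results of these data known. Genes named are a fixed panel, up to 4 highest and 4 lowest of each list, the 12 and 12 genes of largest log2 fold change with at least 20 CPM, the 10 and 10 with at least 200 CPM, and the 6 and 6 largest interactions, predicted genes being passed over. Results for 2 genes that the rule names are not reported here. Krt19, Foxa2, Ttr, Mesp1, Postn, Lum and Prrx1 fall outside that rule and were named after their values were seen. Replicate libraries differed by more than sampling noise (for pairs of WT EpiLC libraries, chi-square over its degrees of freedom was 1.135 to 1.702, for WT day 3 it was 1.176 to 1.416, for KO EpiLC 4.118 to 36.026 and for KO day 3 4.16 to 13.795). Deviations of the KO libraries were correlated by line (r = 0.209, 0.172 and 0.219 across genes), and the lines pair them. Same-numbered WT libraries were not (r = -0.002, -0.020 and -0.023). Alternatives were RLE scaling, no filter, DESeq2 1.42.0, limma 3.58.1 on log2(deposited CPM + 1) or + 0.1, other sets of libraries, each WT library left out and the replicate block.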

Additional observations from a re-analysis of the deposited data

Results flagged for a closer look

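The step to day 3 differed between KO and WT cells, by the interaction in edgeR's quasi-likelihood fit (KO step minus WT step, log2, adjusted p under 0.05), for 36 of the genes named above. Of these calls 19 were kept under every alternative that gave them an adjusted p and 17 were lost under at least 1. Leaving out any 1 WT library lost 12 to 14, and the replicate block lost 4. Among genes that rose in WT cells, the interaction was -8.42 for Wnt7b, -7.48 for Rin3, -7.25 for Ly6a, -6.72 for Tinagl1, -6.67 for Ism2, -5.31 for Tgm2 and -5.13 for Dner. It was -3.92 for Nid1, -2.74 for Klf4, -2.52 for Hspg2, -2.33 for Hk1, -2.06 for Id4, -1.94 for Ckb and -1.72 for Socs3. Igfbp2, which was not called in WT cells, had -1.44.

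Among genes that fell in WT cells, the interaction was 5.70 for Slc35d3, which had 0 counts in WT day 3 so that this value depends on the prior count of the fit. It was 5.21 for Enpp2, 3.69 for Calca, 3.48 for Pde2a, 3.35 for Xist, 3.29 for Vrtn, 3.05 for Bcl11a and 2.81 for Lef1. The early response gene Egr1, the imprinted genes Meg3 and Dlk1, and Foxd3 of the shared pluripotency list had 2.35, 2.13, 2.12 and 1.82. Lin28b and Lin28a had 1.48 and 1.27, Dnmt3a 1.47, Pmaip1 and Mest 1.26 each, Foxh1 1.08, Pou5f1 0.97, Uhrf1 0.50 and Prmt5 0.44. The library labelled KO EpiLC A2 had a higher Esrrb level than any WT EpiLC library, and whether its label is right cannot be told. Without line A2 the values that moved by over 1.5 times were -5.55 for Wnt7b, -3.05 for Tinagl1, -2.90 for Tgm2, -1.28 for Nid1, -1.39 for Hspg2, -0.97 for Socs3 and 0.62 for Pmaip1. Ly6a (-4.03) and Klf4 (-1.99) lost their call without that line.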

How the results depend on the processing

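The 7389 genes called in the WT step became 6511 to 6689 when any 1 WT library was left out and 7340 to 9474 under the other 9 alternatives, and the genes also 2-fold different stayed between 3118 and 3774. The count was 9385 in the fit of the 6 WT libraries alone and 8036 with the replicate block. Of 164 named genes called in the WT step, 154 stayed called under every alternative that gave them an adjusted p, 10 lost the call under at least 1, and 0 turned. The fit of the 6 WT libraries alone tested 159 of the 164. Of 18 not called, 12 were called under at least 1. Of 36 named genes called in the interaction, 17 lost the call under at least 1, and of 146 not called, 35 gained a call and 2 turned. The count of interactions also moved: from 847 genes it went to 1277 with DESeq2, 1912 without KO line A2 and 1457 with the replicate block, and to between 361 and 442 without 1 WT library; the cause was not tested. With limma on log2(CPM + 1) it called 930 genes, of which 298 were higher and 632 lower in KO (32.0% higher, against 44.9%). Without KO line A2 the interactions of Sparc and Vim, -0.68 and -0.60 and not called with it, were 0.72 and 0.96 and called. Totals of 3032965 to 5286330 counts limit genes under about 1 CPM.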
